A study of Mus musculus with 8 samples.

Results

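The Schlafen genes Slfn1, Slfn2, Slfn3 and Slfn4 were followed in pancreatic islets of Tcf1 knock-out mice and of wild type mice. All probe sets annotated to these genes were taken, which gave 5 of the 24965 probe sets of the series, for 4 of the 14602 genes its annotation names. All 5 were on array type MG-U74A, which held 12488 probe sets, and 0 were on MG-U74B. A single probe set, 102264_at, stood for Slfn1. Slfn2 had 92471_i_at and 92472_f_at, made from the same database sequence, and Slfn4 had 92315_at. Slfn3 had no probe set of its own and shared 98299_s_at with Slfn4.

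Total islet RNA was hybridised to both array types, with 2 arrays for the knock-out and 2 for the wild type on each type, 8 in all. The labels call the replicates biological. They give neither the age, the sex and the strain background of the mice, nor the number of animals behind an RNA sample, nor whether the knock-out reached every tissue. The family was chosen by its intensities on these arrays, in that the change of Slfn2 between genotypes was already known, so its values are given as a description, and no p is given for a member.

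Schlafen genes are named after the German word for sleeping, because the first of them were found in mouse thymocytes and slowed growth when expressed. Type I interferon raises several of them in immune cells. Slfn1 and Slfn2 encode the short proteins of the family. Slfn3 and Slfn4 encode intermediate ones, and other members, such as Slfn5, encode long proteins with a helicase-like part. Loss of Slfn2 function in mice makes T cells and monocytes leave their resting state. Slfn4 is best known from macrophages and other myeloid cells, and Slfn3 from T cells and the intestinal epithelium.

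The 4 genes lie in 1 cluster on mouse chromosome 11, in the order Slfn2, Slfn1, Slfn4, Slfn3, with Slfn5, Slfn9, Slfn8 and Slfn10-ps before them and Slfn14 behind. All 4 are read from the plus strand. The 250 bases before the annotated start of each gene are printed here, from RefSeq on GRCm38.p6, because these neighbouring genes are compared with each other below. Capitals mark ACTTCCTGG, the longest run of letters that all 4 windows hold.
Slfn2, chr11:83064862-83065111: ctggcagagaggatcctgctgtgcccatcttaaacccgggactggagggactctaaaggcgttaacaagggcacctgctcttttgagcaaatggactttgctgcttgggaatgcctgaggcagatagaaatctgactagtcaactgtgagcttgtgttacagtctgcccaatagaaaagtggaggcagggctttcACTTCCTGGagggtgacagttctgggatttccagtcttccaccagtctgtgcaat
Slfn1, chr11:83116570-83116819: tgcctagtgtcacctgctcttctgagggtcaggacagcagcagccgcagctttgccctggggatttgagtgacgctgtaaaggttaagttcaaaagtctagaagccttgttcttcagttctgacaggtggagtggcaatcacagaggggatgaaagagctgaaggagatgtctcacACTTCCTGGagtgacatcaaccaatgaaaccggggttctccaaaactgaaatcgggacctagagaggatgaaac
Slfn4, chr11:83174936-83175185: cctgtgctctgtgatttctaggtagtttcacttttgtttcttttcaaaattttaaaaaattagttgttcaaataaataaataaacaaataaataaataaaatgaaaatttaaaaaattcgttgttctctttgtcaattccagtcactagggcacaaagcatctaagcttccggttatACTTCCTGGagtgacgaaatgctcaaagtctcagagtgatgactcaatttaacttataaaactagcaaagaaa
Slfn3, chr11:83191080-83191329: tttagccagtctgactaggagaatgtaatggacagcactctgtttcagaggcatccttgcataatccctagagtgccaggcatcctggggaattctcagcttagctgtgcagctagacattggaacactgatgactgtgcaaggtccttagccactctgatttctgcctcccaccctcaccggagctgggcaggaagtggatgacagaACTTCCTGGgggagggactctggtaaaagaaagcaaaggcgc
The shared run of 9 bases began 55 bases before the start of Slfn2, 74 before Slfn1, 73 before Slfn4 and 42 before Slfn3, each time on the plus strand. Its reverse complement, CCAGGAAGT, holds the GGAA core that ETS transcription factors bind, and lies on the minus strand. The run was found by comparing these windows, so its presence in all 4 is no test. Of 32851 RefSeq windows of the same length, 230 (0.700%) held it on either strand. The windows differed in base composition, with 29.6% G and C for Slfn4, while those of Slfn2, Slfn1 and Slfn3 were 50.8%, 50% and 52%. A pair of motifs of interferon-activated factors was searched on both strands as well, the interferon-stimulated response element and the gamma-interferon activation site. The first was spelled GAAA, any 2 bases, GAAA, and the second TTC, any 3 bases, GAA. These letters were in 0 of the 4 windows, and in 2.98% and 7.02% of all windows. That says only that these spellings are not within these 250 bases.

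On both genotypes the arrays read islet RNA. The hormone genes Ins2, Gcg and Sst, for insulin, glucagon and somatostatin, had intensities between 8901.4 and 34049.8 on the MG-U74A arrays of either genotype. The Gapdh 3'/5' signal ratio, which is higher when the labelled RNA is less complete, was 0.937 to 0.949 on the knock-out arrays and 3.15 to 3.22 on the wild type arrays of MG-U74A. The added control BioB read 3394.4 to 3905.5 in knock-out and 205.1 to 218.2 in wild type. On MG-U74B the Gapdh ratio was 0.900 to 0.914 in knock-out and 3.07 to 3.12 in wild type. BioB read 8195.7 to 11271.2 and 396.4 to 409.5 there, so both controls differed between genotypes on both array types. The part of RNA completeness and labelling in the differences below was not tested.

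Slfn2, which helps lymphocytes stay at rest, had the largest log2 differences of the 5 probe sets. Its probe set 92471_i_at read 1357.2 and 1432.5 on the knock-out arrays, against -9.9 and -2.8 on the wild type arrays. Values below 0 can arise where the authors' software subtracts a mismatch signal, and here both wild type arrays were listed below 0, so no fold change can be given. The difference was 5.83 ± 0.11 (SE) on the scale of log2(intensity + 25). Since both wild type values were set to 0 before log2, that error holds the spread of the knock-out arrays and limma's pooled estimate, and no wild type spread.

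The other Slfn2 probe set, 92472_f_at, read 771.8 and 723.2 in knock-out islets, against 30.5 and 12.3 in wild type islets. Here the wild type was listed above 0 on both arrays, though at a low level, and the mean was 748 ± 34.4 in knock-out and 21.4 ± 12.9 in wild type (SD, n = 2 each). The wild type mean lay below the minimum of 62.5 set for testing, so no ratio is given. The log2 difference was 4.08 ± 0.23, a size that depends on the constant added, and the 4 differences between a knock-out and a wild type array ran between 3.75 and 4.42. The suffix f marks a set whose probes fit several members of a gene family, so other Schlafen transcripts can add to its signal. The suffix i marks a set with fewer unique probes than the usual number. Both sets, made from the same sequence, put knock-out islets far above wild type islets for Slfn2, and the groups did not overlap on either. Of all MG-U74A probe sets other than controls, 28.4% had both knock-out arrays above both wild type arrays.

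Slfn1, the founding member and the other short form, was higher in knock-out islets by a smaller step. Probe set 102264_at read 247.7 and 199.9 in knock-out and 70.8 and 80.5 in wild type. The knock-out arrays both lay above the wild type arrays, with a mean of 224 ± 33.8 against 75.7 ± 6.86 (SD, n = 2 each), a ratio of 2.96. On the log2 scale the difference was 1.30 ± 0.17, and the 4 differences between single arrays ran between 1.09 and 1.51. The knock-out arrays differed from each other by 0.28 on that scale. Among 1424 tested probe sets with a mean within 25% of that of Slfn1, the median of this difference between the knock-out arrays was 0.23.

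**Figure D1:**
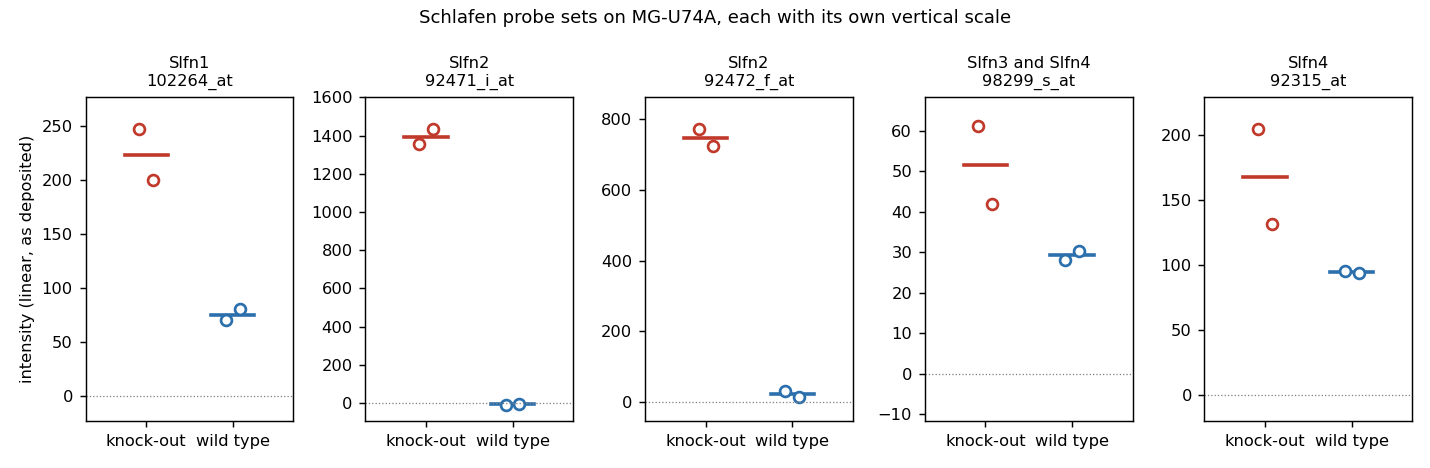
Intensity of the 5 Schlafen probe sets on MG-U74A, 1 panel each with its own vertical scale. Open circles are single arrays (knock-out red, wild type blue), horizontal bars are means of 2 arrays, and the dotted line is 0. Both knock-out arrays lie above both wild type arrays in every panel, as they do for 28.4% of all MG-U74A probe sets other than controls. The gap is widest for the Slfn2 sets, at 723.2 to 1432.5 in knock-out and -9.9 to 30.5 in wild type.

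Slfn4, the myeloid member, had a log2 difference below 1 on its own probe set, and its knock-out arrays disagreed. Probe set 92315_at read 205.2 and 131.2 in knock-out, against 95.2 and 94.0 in wild type. The knock-out arrays were both the higher ones, with a mean of 168 ± 52.3 against 94.6 ± 0.849 (SD, n = 2 each) and a ratio of 1.78. Knock-out replicate 1 lay above replicate 2 by 0.56 on the log2 scale, nearly as much as the difference between genotypes of 0.66 ± 0.23. Among 1384 tested probe sets with a mean within 25% of that of Slfn4, the knock-out arrays differed by a median of 0.25, and 90% of them by at most 0.86. Without knock-out replicate 1 the genotype difference was 0.39, and without knock-out replicate 2 it was 0.94.

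Slfn3, the member known from T cells and intestine, could not be read apart from Slfn4. The shared probe set 98299_s_at, whose suffix marks probes common to several transcripts, read 61.1 and 41.8 in knock-out and 28.1 and 30.3 in wild type. All 4 values were low, and the mean of the 4 arrays lay below that minimum. The knock-out mean was 51.5 ± 13.6 and the wild type mean 29.2 ± 1.56 (SD, n = 2 each). On the log2 scale the difference was 0.48, which became 0.30 without knock-out replicate 1 and 0.67 without knock-out replicate 2. The array that was high for 98299_s_at, knock-out replicate 1, was also the high one for 92315_at. How much Slfn3 added to this signal was not tested.

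Counted together, 5 of 5 probe sets were higher on both knock-out arrays than on both wild type arrays, a pattern that 28.4% of all probe sets other than controls on MG-U74A showed. Only the sets of Slfn1 and Slfn4 reached the minimum level of 62.5 on their wild type mean too, and those of Slfn2 reached it through the knock-out arrays. The choice of the family used this contrast, so nothing is read from the count.

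The size of the Slfn2 difference depended on the constant added before log2, as it does for any gene at 0 in 1 group. For 92471_i_at it was 7.13 with a constant of 10 and 3.90 with a constant of 100. For 92472_f_at it was 4.65 and 2.81. Slfn1 had 1.44 and 0.88. Knock-out stayed above wild type for each of the 5 probe sets under every setting that gave a value.

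**Figure D2:**
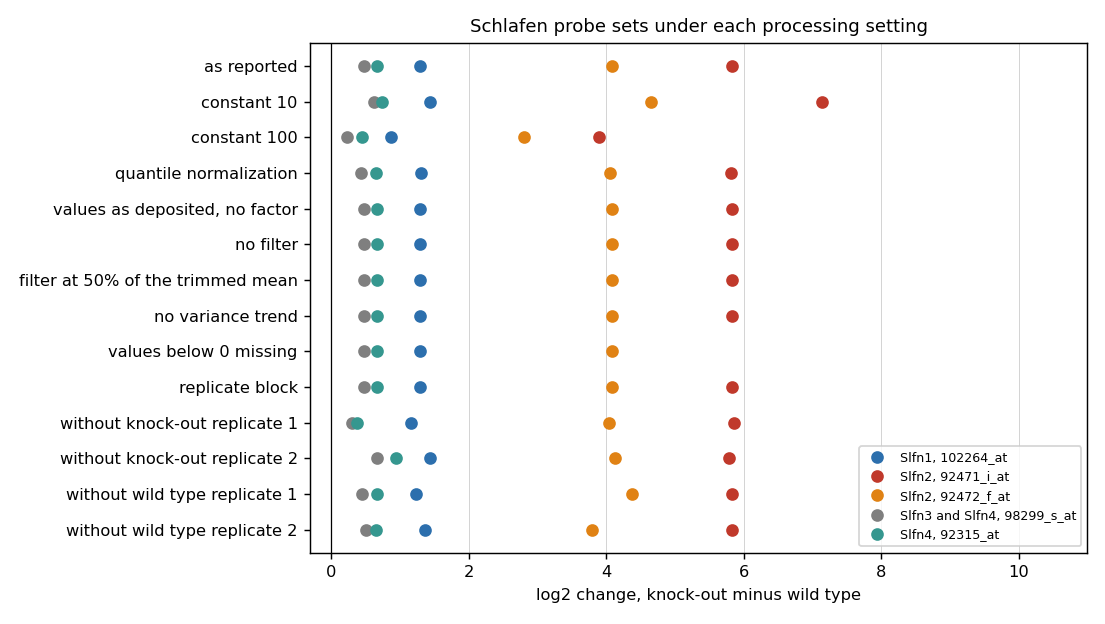
Log2 change, knock-out minus wild type, of the 5 Schlafen probe sets on MG-U74A (horizontal axis) under each processing setting (rows). Changing the constant added before log2 moved Slfn2 most, between 3.90 and 7.13 for 92471_i_at, and every point lies to the right of 0. That probe set has no value where intensities below 0 were taken as missing.

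MG-U74B carried a probe set for each of 2 relatives outside the 4 genes, and neither passed the test there. Slfn5, a long form of the same cluster, read 196.6 and 212.6 in knock-out and -96.1 and 125.1 in wild type. The wild type arrays disagreed by far more than the knock-out arrays did, though both were lower. The log2 difference was 1.91 ± 0.92 (limma, adjusted p = 0.216). Slfnl1, a Schlafen-like gene on another chromosome, read 497.4 and 440.3 in knock-out and 357.4 and 201.5 in wild type, a difference of 0.74 ± 0.31 (limma, adjusted p = 0.167). On this array type 17.5% of 7861 tested probe sets were called, so it gave fewer calls than MG-U74A.

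The genes whose profile over the 4 MG-U74A arrays was most like that of Slfn2 were sought among 6736 tested probe sets of single genes. Likeness was the Euclidean distance of log2 values after subtracting each probe set's own mean, for 92471_i_at. The nearest was Cd79a, which signals for the B cell receptor, at a distance of 0.08, with 1356.2 and 1340.1 in knock-out and both wild type arrays below 0. Ighm, the heavy chain of immunoglobulin M, followed at 0.23 on its probe set 101870_at, and the immunoglobulin entry Igh-VS107 at 0.55. Sidt2, at 0.80, and Tff3, a trefoil peptide of mucous epithelium, at 0.99, were next. All 5 had at least 1 wild type array below 0, as Slfn2 had, and the floor at 0 makes such profiles alike. These are descriptions over 4 arrays.

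Since Schlafen genes respond to interferon, 54 other interferon-induced genes were listed. On MG-U74A 37 of them were tested, of which 27 rose, 1 fell and 9 were not called, where 23.9% of the 7516 tested probe sets rose, 29.0% fell and 52.9% were called in all. Of the 27, 26 also had a mean above the minimum of 62.5 in both genotypes. Their median log2 change was 1.33, against -0.09 over all tested probe sets. Ifi47, an interferon-inducible GTPase, read 982.4 and 1038.8 in knock-out and 61.7 and 49.0 in wild type, and rose by 3.69 ± 0.12 (limma, adjusted p = 2.03e-04). It is the gene that reached the minimum through the knock-out arrays, so this size depends on the constant. The chemokine Cxcl9, induced by interferon gamma, rose by 3.62 ± 0.08 and the immunoproteasome subunit Psmb9 by 2.98 ± 0.14 (adjusted p = 1.16e-04 and 4.23e-04). The 1 that fell was Rsad2, an antiviral enzyme, with -0.44 ± 0.11 (adjusted p = 0.0302). Another Rsad2 probe set, on MG-U74B, had 0.17 ± 0.24 and was not called (adjusted p = 0.634).

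Genes of the type I interferon response stood on both sides of the threshold on MG-U74A. The ubiquitin-like protein gene Isg15 and the antiviral genes Ifit3 and Ifit2 rose by 1.43 ± 0.04, 1.72 ± 0.10 and 0.55 ± 0.14. Irf7, a transcription factor that amplifies the response, changed by 0.36 ± 0.16 (limma, adjusted p = 0.124). The antiviral GTPase Mx1 had 0.43 ± 0.15 (adjusted p = 0.0781), and Usp18, which limits interferon signalling, had 0.26 ± 0.11 (adjusted p = 0.126). Lower in knock-out but not called were Ifit1 (-0.21 ± 0.11), Ifih1 (-0.11 ± 0.16) and, of the wider list, Tapbp (-0.11 ± 0.05). Irf9, Mx2 and Adar, with 0.11 ± 0.08, 0.14 ± 0.10 and 0.41 ± 0.23, were not called either. On MG-U74B 13 members were tested, of which 4 rose, Bst2, Ifi30, Ly6e and Oasl1, where 8.59% of all tested probe sets rose. Oasl2 fell, as 8.87% of all tested probe sets did, and 8 were not called. Those 4 rises became 0 on leaving out any 1 array of MG-U74B.

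Of 20 tested genes of lymphocyte rest on MG-U74A, 7 rose, 4 fell and 9 were not called, with a median of 0.12, where 23.9% of all tested probe sets rose and 29.0% fell. Only 4 of the rises and 3 of the falls had a mean above 62.5 in both genotypes. Ccr7, a homing receptor of resting T and B cells, rose by 2.27 ± 0.08, to 783.5 and 787.2 in knock-out, against 137.1 and 148.7 in wild type (limma, adjusted p = 2.37e-04). The lymphoid transcription factor gene Ikzf1 read 142.7 and 135.4 in knock-out and 39.7 and 23.8 in wild type, and rose by 1.55 ± 0.23 (adjusted p = 0.00742), with a wild type mean below 62.5. Tob1, a brake on T cell division that other tissues also express, fell by 2.06 on the log2 scale, to 203.2 and 210.2 in knock-out, against 923.6 and 959.9 in wild type (adjusted p = 1.92e-04). The growth restraints Tsc1, Cdkn1b and Tsc22d3 fell too, with -0.76, -0.69 and -0.98. On MG-U74B the brightest Tob1 probe set was at or below 0 on both knock-out and both wild type arrays.

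The members not called on MG-U74A included Btg2, at 0.10 ± 0.07, Foxo3, at 0.08 ± 0.08, and S1pr1, at 0.43 ± 0.17 (limma, adjusted p = 0.276, 0.470 and 0.103). Klf3 and Klf13, at 0.14 ± 0.14 and 2.48 ± 1.05, were not called either. The others not called were lower in knock-out, namely Bcl2 (-0.68 ± 0.28), Foxj1 (-1.93 ± 1.02), Tsc2 (-0.30 ± 0.27) and Foxp1 (-0.26 ± 0.10). Klf2, a keeper of T cell rest, was at or below 0 on all 4 arrays. On MG-U74B 3 of 11 tested members rose, Btg1, Ets1 and Ikzf1, and 0 fell, with 8 not called, where 8.59% of all tested probe sets rose and 8.87% fell. Those rises also became 0 without any 1 array of that type.

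Of the immune cells that express Schlafen genes, markers of B cells, macrophages and neutrophils were mostly higher in knock-out on the same MG-U74A arrays. Most tested T cell markers were not called. Of 15 tested B cell markers 11 rose and 0 fell, with a median of 1.49, where 23.9% of all tested probe sets rose and 29.0% fell. Of the 11, 8 had a mean above 62.5 in both genotypes. The summed intensity of the 17 measured was 27073.3 to 27991.1 in knock-out and 7485.3 to 7830.8 in wild type. Pou2af1 and Ighm, both with wild type means above 62.5, rose by 2.37 ± 0.14 and 2.37 ± 0.05 (limma, adjusted p = 7.00e-04 and 1.01e-04). Cd79a, below 0 in wild type, also rose, by a size that the constant sets. Cd79a and Cd22 were at or below 0 on both wild type arrays, and 0 of the 17 were so in knock-out. Ms4a1 and Pax5, which mark B cells as well, had 0.08 ± 0.05 and 0.01 ± 0.08 and were not called on MG-U74A. A second Ms4a1 probe set, on MG-U74B, read 476.6 and 442.2 in knock-out and 203.3 and 136.3 in wild type, and rose by 1.34 ± 0.27 (adjusted p = 0.0360).

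Of 16 tested macrophage and dendritic cell markers 13 rose and 0 fell, with a median of 0.92, against 23.9% and 29.0% of all tested probe sets. The sum over 22 measured genes was 13934.4 to 14075.6 in knock-out and 5758.2 to 5989.5 in wild type. The complement gene C1qb, the lysosomal protein gene Cd68 and the lysozyme gene Lyz2 rose most, by 2.69 ± 0.20, 2.08 ± 0.10 and 1.90 ± 0.04. Itgam and Fcer1g were at or below 0 on both wild type arrays. Not called were Itgax, at 1.02 ± 0.43, Cx3cr1, at 0.06 ± 0.21, and Fcgr3, at -0.74 ± 0.28 (limma, adjusted p = 0.120, 0.833 and 0.0951). Of 7 tested neutrophil markers 5 rose and 0 fell, against the same shares, and the sum over 14 measured was 5236.4 to 5477.1 in knock-out and 3559.8 to 3568.4 in wild type. S100a8 and Mmp9 rose by 2.82 ± 0.09 and 2.09 ± 0.16. S100a9 rose as well, to 273.5 and 331.7 in knock-out, against 41.1 and 6.3 in wild type, by a size that depends on the constant. The rise of Lcn2 was small, at 0.25 ± 0.03. Csf3r, at -1.05 ± 0.33, and Elane, at 0.14 ± 0.14, were not called (limma, adjusted p = 0.0582 and 0.461). Ly6g, Ngp and Mmp8 were at or below 0 on both wild type arrays and Ngp and Mmp8 on both knock-out arrays as well. Without either wild type array 3 of the 7 rose.

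T cell markers, of the cells in which Slfn1 and Slfn2 are best known, were mostly low. Only 7 of 18 measured reached the minimum level, of which 2 rose, a share near the 23.9% of all tested probe sets, 0 fell and 5 were not called. The 2 were Cd3d, with 204.7 and 216.9 in knock-out and 22.9 and -0.9 in wild type, and Thy1, with 277.9 and 339.2 in knock-out and 28.5 and 23.7 in wild type, both below 62.5 in wild type. Those not called were Cd4 (0.05 ± 0.07), Lat (0.09 ± 0.07), Zap70 (0.34 ± 0.17) and, lower in knock-out, Cd27 (-0.20 ± 0.16) and Cd247 (-0.27 ± 0.22). Fibroblasts of the mouse can express Thy1 too. The sum over the 18 was 2259.3 to 2419.4 in knock-out and 1376.9 to 1428.8 in wild type, and Cd3e, Cd5 and Cd96 were at or below 0 on all 4 MG-U74A arrays and Cd2 on both wild type arrays. A Cd3e probe set on MG-U74B read 42.5 and 167.3 in knock-out and 136.2 and 39.9 in wild type, and was not called. Of 6 tested genes of lymph node vessels and stroma 3 rose, Glycam1, Vcam1 and Cd34, and Lyve1 fell, against 23.9% and 29.0% of all tested probe sets. Glycam1 read 2334.4 and 2310.8 in knock-out and 64.6 and 64.2 in wild type, a rise of 4.71 ± 0.06 (limma, adjusted p = 9.39e-05). Vcam1 and Cd34 rose by 1.71 ± 0.07 and 1.26 ± 0.21, and Lyve1 had -0.31 ± 0.08. Madcam1, at 1.61 ± 0.49, and Ltbr, at -0.68 ± 0.28, were not called (limma, adjusted p = 0.0550 and 0.115). Another Lyve1 probe set, on MG-U74B, had 0.31 ± 0.58 and was not called (adjusted p = 0.729). Cxcl13 was at or below 0 on both wild type arrays of MG-U74A. The sum over the 7 genes of this list measured there was 4586.1 to 5179.2 in knock-out and 1197.3 to 1466.5 in wild type.

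All 11 tested islet markers fell, with a median of -1.30 and a sum of 79549.8 to 87925.8 in knock-out and 126931 to 127608.9 in wild type, where 29.0% of all tested probe sets were called lower. Of the 11, 9 had a mean above 62.5 in both genotypes, among them the granule protein gene Chga, at -2.46 ± 0.06. The glucose transporter gene Slc2a2 and the transcription factor gene Pdx1 read 13.2 to 31.5 and -6.1 to 23.1 in knock-out, against 662.2 to 704.7 and 154.9 to 263.6 in wild type, so the size of their falls depends on the constant. Without wild type replicate 2, 7 of the 11 passed the test. In RNA of whole islets, more cells of a type and more RNA per cell cannot be told apart. The part of these cell types in the Schlafen values was not tested.

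**Figure D3:**
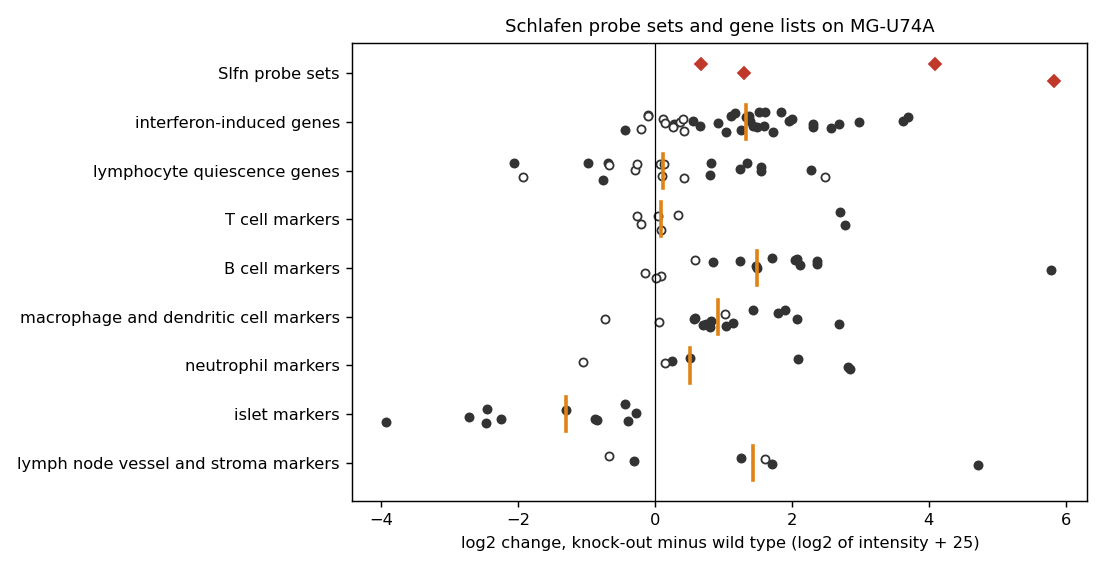
Log2 change, knock-out minus wild type, of Schlafen probe sets with a mean above 62.5 (red diamonds, top row, a description without a test) and of the genes of each list on MG-U74A (black), 1 point per gene with its brightest probe set. Filled black points passed an adjusted p of 0.05, open points did not, and orange bars are the medians of the lists. Interferon-induced genes and markers of B cells and of macrophages lie mostly right of 0, and islet markers lie left of 0.

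The genes nearest to the Schlafen cluster with a tested probe set were taken as neighbours, 5 on each side. Of these 10 genes 5 rose, 0 fell and 5 were not called by their probe set with the highest mean on the first array type that held them. Over all tested probe sets 23.9% rose and 29.0% fell on MG-U74A, and 8.59% and 8.87% on MG-U74B. The 5 that rose are chemokine genes at the outer ends of the stretch. Ccl7 read 1147.9 and 1137.6 in knock-out and 267.5 and 249.3 in wild type, and rose by 2.04 ± 0.06 (limma, adjusted p = 1.91e-04). Ccl5 rose by 1.60 ± 0.06, Ccl9 by 1.16 ± 0.11, Ccl11 by 1.15 ± 0.21 and Ccl6 by 0.76 ± 0.21 (adjusted p = 3.12e-04, 0.00226, 0.0135 and 0.0390). Ccl11 reached the minimum level only through the knock-out arrays, at 128.8 and 179.5, against 54.3 and 55.4 in wild type. The size of its rise therefore depends on the constant.

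On each side, the genes closer in than those that rose were not called. Nle1, a ribosome assembly gene and the nearest on one side, read 841.4 and 664.0 in knock-out and 985.1 and 919.3 in wild type on MG-U74B, a change of -0.34 ± 0.16 (limma, adjusted p = 0.213). Ap2b1, an adaptor of clathrin coats and the nearest on the other side, had 0.34 ± 0.20 on MG-U74A (adjusted p = 0.228), and its 2 probe sets on MG-U74B were not called. Lig3, a DNA ligase gene, had 0.06 ± 0.19 on its brighter probe set (adjusted p = 0.810), while its dimmer set fell by 1.37 on the log2 scale (adjusted p = 0.00677). The dimmer Lig3 set reached the minimum level only through the wild type arrays, and read 37.1 and 28.7 in knock-out. The size of that fall therefore depends on the constant. Ccl8, also a chemokine gene, with 0.08 ± 0.16, and Mmp28, with -0.31 ± 0.82, were not called (adjusted p = 0.694 and 0.815). Ccl8 lay 18 genes from the cluster, and Ccl5, which rose, 17 on the other side.

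**Figure D4:**
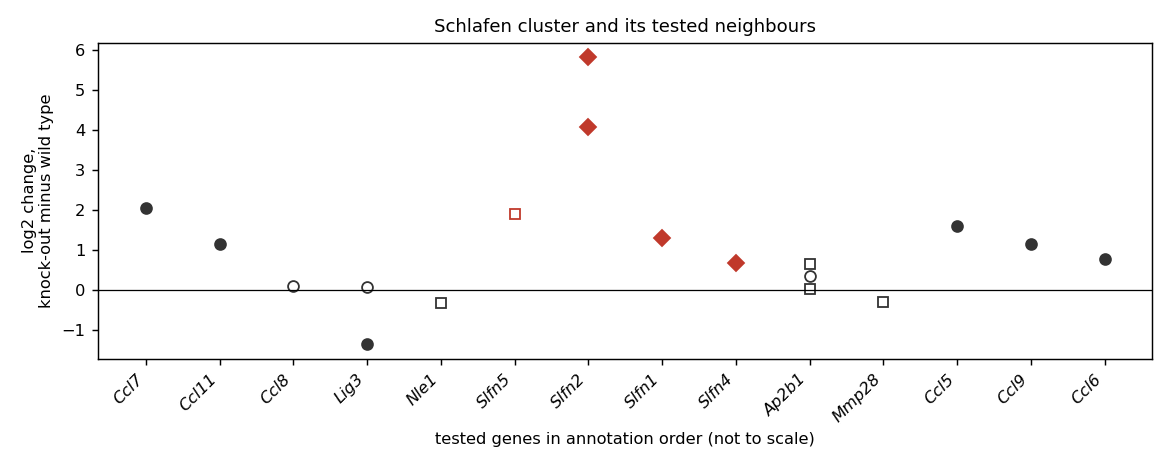
Log2 change, knock-out minus wild type, of tested genes in their annotation order along the chromosome, not to scale, with Schlafen genes in red and neighbours in black. Red diamonds are the probe sets of Slfn2, Slfn1 and Slfn4, given without a test. Circles are other MG-U74A and squares other MG-U74B probe sets, filled where adjusted p was below 0.05. Slfn2 stands at 4.08 and 5.83, Nle1 and Ap2b1 beside the cluster lie between -0.34 and 0.65, and 5 chemokine genes farther out lie between 0.76 and 2.04.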

How the data were processed

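The authors deposited a linear intensity for each probe set. They had scaled the arrays, since the mean left after trimming 2% of probe sets at either end was 250.2 for every MG-U74A array and 250.1 for every MG-U74B array. The labels and files do not say with which software. Arrays were brought to the common trimmed mean of their type, values below 0 were set to 0, and log2(intensity + 25) was taken. Control probe sets and those with a mean below 25% of the trimmed mean (62.5) were left out. Each array type was fitted by itself with lmFit and eBayes (variance trend) of limma 3.58.1 in R 4.3.3, two-sided, with Benjamini-Hochberg adjustment over all tested probe sets and a threshold of 0.05. With 2 arrays against 2 an exact permutation test reaches no p under 0.333, so p-values rest on pooling across probe sets, and the spread they measure may be technical. The number of arrays limits the precision.

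Symbols came from the array annotation, updated through a table of GRCm38.p6. The members, lists, rules and alternatives were chosen with earlier results of these data known. Named were all Schlafen probe sets, the 3 largest called changes and up to 3 genes not called per list, the 5 nearest profiles and the 5 nearest tested genes on each side of the cluster. Other list members and the shared promoter run were named after their values or letters were seen. Listed genes are read from their brightest tested probe set. The level of the targeted gene is not reported here. Alternatives were the constant, scaling, filter, variance trend, missing values below 0, a replicate block and leaving out each array.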

Additional observations from a re-analysis of the deposited data

How the results depend on the processing

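Knock-out stayed above wild type for all 5 Schlafen probe sets under every alternative that gave a value. Where intensities below 0 were taken as missing, 92471_i_at had none, since both its wild type arrays were below 0. With a constant of 10 the log2 change was 7.13 for 92471_i_at and 4.65 for 92472_f_at. With a constant of 100 it was 3.90 and 2.81 for these, 0.88 for Slfn1 and 0.23 for 98299_s_at. Leaving out 1 array each gave 5.79 to 5.87 for 92471_i_at.

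The 3974 calls on MG-U74A became 2264 to 4097 on leaving out 1 array, with the low counts without wild type replicate 1 (2311) or 2 (2264). The 1372 calls on MG-U74B became 764 without the filter, 638 without the trend and 0 to 538 on leaving out 1 array. The 0 came from limma without either wild type array, where 1873 and 1817 probe sets had an unadjusted p under 0.05. Interferon-induced genes that rose on MG-U74B numbered 1 in place of 4 when the filter or, separately, the variance trend was dropped, and 0 without any 1 array. Genes of lymphocyte rest that rose numbered 1 in place of 3 on MG-U74B with no filter and 0 without any 1 array, and 4 in place of 7 on MG-U74A with the filter at 50% of the trimmed mean. The 27 interferon-induced rises on MG-U74A ranged from 25 to 29. Among the marker lists on MG-U74A, islet falls numbered 7 in place of 11 with no filter or without wild type replicate 2, and neutrophil rises 3 in place of 5 without either wild type array. T cell rises numbered 6 in place of 2 with no filter and 1 with the 50% filter. B cell rises became 22 and those of lymph node genes 7 when every probe set was counted.

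With the replicate number as a block, calls numbered 3628 on MG-U74A and 1209 on MG-U74B. Same-numbered arrays of the genotypes deviated together at r = 0.02 and 0.03 across probe sets, and the numbers were not taken as pairs.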
